A study of Homo sapiens with 16 samples.

Results

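The 10 genes described here serve protein folding in the endoplasmic reticulum (ER) and belong to the unfolded protein response: HSPA5, HSP90B1, HYOU1, DNAJB9, SDF2L1, CALR, PDIA4, PDIA6, HERPUD1 and XBP1. They were chosen by name, as ER folding genes and targets of the IRE1 and ATF6 arms of that response, and each symbol matched 1 of the 54127 Ensembl gene identifiers that were counted. The rule itself uses no measured value. RNA sequencing was performed on HT55 and SW948, both established human colorectal cancer cell lines, after 6 days with itraconazole, an azole antifungal, or with its solvent. The comparison asks what the drug does to the transcripts of these cells.

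There were 4 groups of 4 libraries. HT55_CONT and SW948_CONT received DMSO alone, and HT55_ITRA and SW948_ITRA received itraconazole at 5 µM. All cells grew attached to plastic with foetal bovine serum and antibiotics, and the labels name no genetic change. The methods of the study speak of biological quadruplicates, but the labels do not say whether the 4 libraries of a group came from separate cultures, so the p-values below measure the spread between libraries, which may be partly technical. Each line stands for 1 culture model of the disease, and HT55 and SW948 differ in far more than their response to the drug. In bulk RNA, fewer cells of a kind and less RNA per cell cannot be told apart.

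The ER is where secreted and membrane proteins fold, acquire disulfide bonds and sugar chains, and are checked before export. When unfolded proteins accumulate there, 3 membrane sensors respond: IRE1 (gene ERN1) splices the XBP1 transcript, ATF6 is cut by proteases in the Golgi to release a transcription factor, and PERK (gene EIF2AK3) slows translation while favouring that of ATF4. XBP1 and ATF6 bind ER stress response elements near the start of chaperone genes and raise their transcription. In the intestine this response is known for its part in secretory cells such as goblet and Paneth cells.

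Those elements are printed here because they are the sequence feature that most members have in common. An ER stress response element (ERSE) was searched as CCAAT, any 9 bases, then CCACG, on both strands of RefSeq windows that run from 250 bases before to 50 bases after each annotated start. The same pattern with 1 base different in its last 5, the shorter ERSE-II (ATTGG, any 1 base, CCACG) and the unfolded protein response element (UPRE, TGACGTGG) were searched too. The stretches below are all upstream of the start, in the gene's own 5′ to 3′ direction and on GRCh38.p14. Capitals mark every match within them, so that CGTGG followed later by ATTGG is an ERSE on the opposite strand. The HYOU1 match with 1 base different, at -2 to 17, crosses the start and is not printed.
HSPA5, chr9:125241385-125241415, minus strand: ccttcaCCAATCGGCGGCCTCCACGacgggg
PDIA6, chr2:10812847-10812877, minus strand: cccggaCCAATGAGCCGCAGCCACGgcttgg
XBP1, chr22:28800597-28800627, minus strand: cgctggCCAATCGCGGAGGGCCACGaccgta
CALR, chr19:12938378-12938408, plus strand: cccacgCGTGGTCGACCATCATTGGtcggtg
HSP90B1, chr12:103930171-103930345, plus strand: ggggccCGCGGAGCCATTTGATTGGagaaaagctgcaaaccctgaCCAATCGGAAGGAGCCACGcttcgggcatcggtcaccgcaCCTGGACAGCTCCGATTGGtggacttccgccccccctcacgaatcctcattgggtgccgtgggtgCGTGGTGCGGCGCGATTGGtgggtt
HERPUD1, chr16:56932019-56932083, plus strand: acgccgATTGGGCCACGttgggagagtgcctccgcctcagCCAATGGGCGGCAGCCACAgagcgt
SDF2L1, chr22:21642108-21642144, plus strand: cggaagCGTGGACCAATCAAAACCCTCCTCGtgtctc
HYOU1, chr11:119057268-119057399, minus strand: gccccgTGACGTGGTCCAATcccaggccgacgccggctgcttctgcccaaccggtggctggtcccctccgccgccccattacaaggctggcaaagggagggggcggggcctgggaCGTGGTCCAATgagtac

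The exact ERSE lay in the windows of 5 members, HSPA5, HSP90B1, CALR, PDIA6 and XBP1, and in those of 25 of 27305 genes in all (0.0916%). HSP90B1 held it at 2 places, and PDIA6 held it in the second of its windows. HSP90B1, HYOU1, HERPUD1 and SDF2L1 had a match with 1 base different, against 1.19% of genes, and HYOU1, HERPUD1 and SDF2L1 had the ERSE-II, against 0.0696%. HYOU1 alone among the members had the UPRE, which 0.927% of genes have, and it overlapped the more distal ERSE-II of that gene. In SDF2L1 the ERSE-II and the ERSE with 1 base different overlapped as well. At least 1 ERSE-type match was found for 8 of the 10 members, against 1.33% of all genes, whereas these letters were not in the windows of DNAJB9 and PDIA4. Since the members are textbook targets of the factors that bind these elements, this share is not independent of how they were chosen. A match is a description of the letters and no evidence of binding in these cells.

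**Figure D1:**
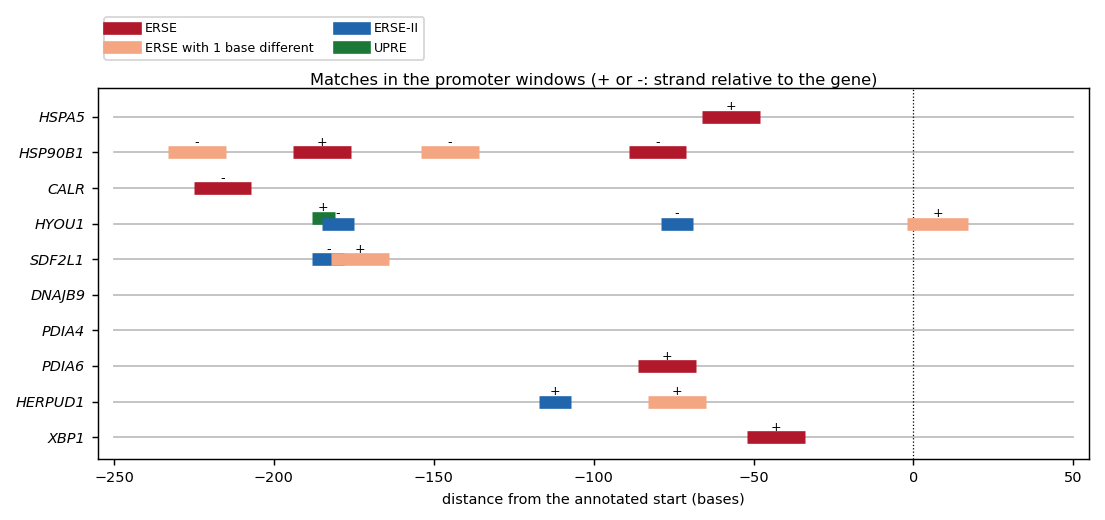
Position of each motif match in the promoter windows of the 10 members, in bases from the annotated start (dotted line), from 250 bases upstream to 50 bases downstream. Colours give the motif and the sign above each bar gives the strand relative to the gene. 8 members have an ERSE-type match, and DNAJB9 and PDIA4 have none in the windows searched.

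Gene counts per library ranged from 8269406 to 11110814, and levels below are CPM, the counts per 1000000 gene counts after TMM scaling of the library sizes, which sets the libraries to a common level for most genes. Scaling matters here: on plain library totals the median of all genes moved by -0.165 in HT55 and by -0.329 in SW948 on the log2 scale, so every log2 fold change is read relative to most other genes, and the directions of named genes that flip on plain totals are given with their values. Within HT55 the treated replicate 3 lay closest to the controls on the first principal component, at 13.7 against 36.4 to 52.4 for the other treated libraries and -37.1 to -34.8 for the controls. In SW948 the treated replicate 1 was the nearest, at 49.2 against 64.2 to 80.1 for the other treated libraries and -67.5 to -66.9 for the controls. Mitochondrial genes held 2.11% to 2.19% of the counts in HT55_CONT and 2.65% to 3.06% in HT55_ITRA, and 1.0597% to 1.48% in SW948_CONT and 2.05% to 2.97% in SW948_ITRA, with the highest share in replicate 1. Their part in the results was not tested. All 8 intestinal epithelial markers examined were above 1 CPM on plain totals in the mean of each group. Of 9 markers of stromal, endothelial and blood cells that were measured, the sum was also taken on plain totals. It stayed between 24.2 and 58.8 CPM in all libraries but those of SW948_ITRA. There it was 105 to 120.0 CPM, most of it CD68, a lysosomal protein of macrophages. In SW948 the 3 markers that could be tested all rose: CD68 (2.39 on the log2 scale), CD79A of B cells (2.37, at a mean of 1.75 CPM with the drug) and COL1A1 of fibroblasts (1.65, at 10.1 CPM). PTPRC, COL3A1 and CD3E, markers of leukocytes, fibroblasts and T cells, had no count in any SW948 library. In HT55, of 2 markers tested, PDGFRB rose (1.25) and CD68 did not pass (0.59, adjusted p = 0.0868). The part of these markers in the results was not tested.

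The members were well covered except for SDF2L1, which had 220 to 572 counts per group of 4 libraries. HSP90B1 and CALR gave the highest levels per kilobase of the canonical transcript in every group. In HT55_CONT these were 371 and 323 CPM per kb, against 189 for PDIA6, 179 for HSPA5, 22.6 for DNAJB9 and 11.1 for SDF2L1. With the merged exons of all transcripts as the length, the order changed. CALR then came first in every group and HSP90B1 fell to between the third and the sixth place, since its merged exons add up to 13092 bases against 2782 in the canonical transcript. SDF2L1 was last by both lengths. As a share of all gene counts, which needs no scaling, the 10 members together held 0.407% ± 0.0031 in HT55_CONT, 0.426% ± 0.049 in HT55_ITRA, 0.505% ± 0.012 in SW948_CONT and 0.438% ± 0.024 in SW948_ITRA (SD, n = 4). With TMM scaling the order in SW948 was the reverse, since the summed level was 4345 ± 126 CPM in SW948_CONT and 4770.1 ± 138 CPM in SW948_ITRA, beside 3981 ± 40.1 and 4657 ± 703 CPM in HT55.

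**Figure D2:**
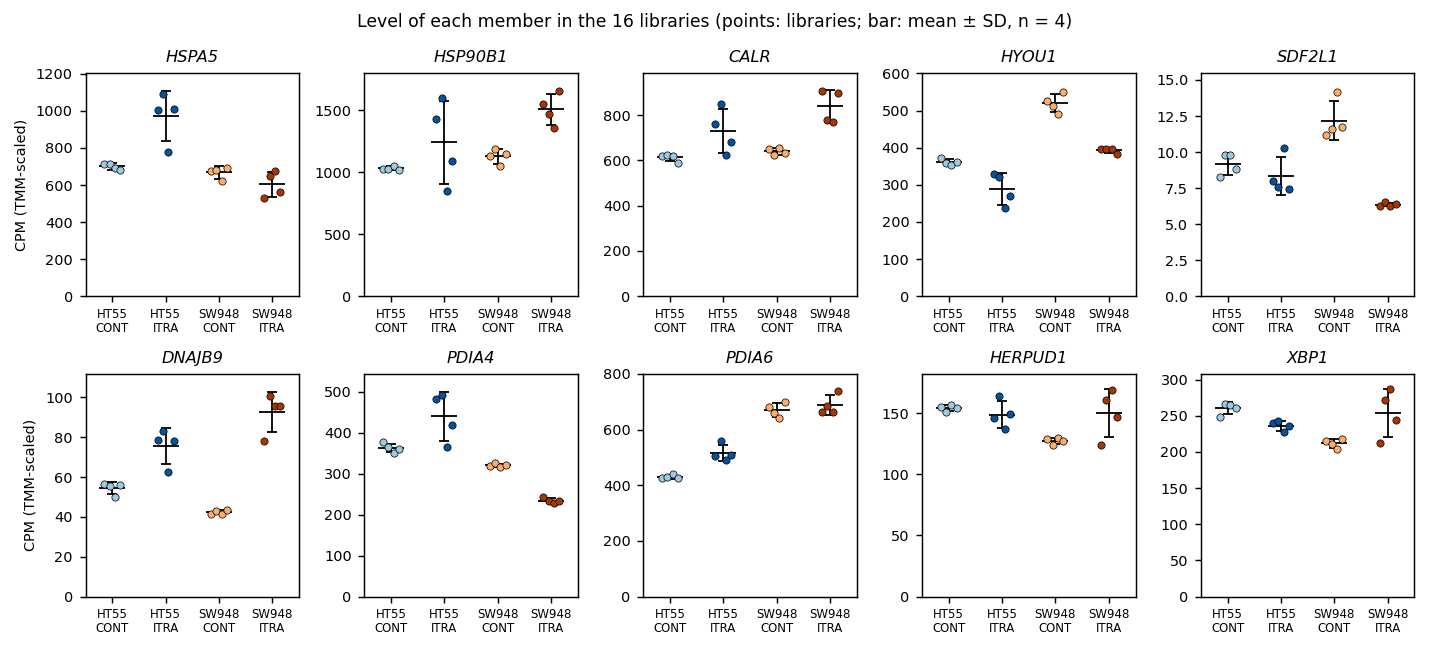
Level of each member in CPM with TMM scaling, on linear axes from 0, in the 4 libraries of each group (points), with the mean and SD (bars). DNAJB9 stands higher in all treated than in all control libraries of its line, HYOU1 stands lower in all treated libraries, and HSPA5 separates the groups in HT55 and not in SW948.

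Before treatment the lines already differed in most members. In SW948_CONT against HT55_CONT, 4 members were higher, 4 were lower and 2, HSPA5 and CALR, did not pass the test, where 84.2% of all 12820 genes tested differed (42.6% higher and 41.6% lower in SW948). The groups did not overlap for 7 members, against 78.6% of all genes. On plain totals 6 members were higher and 3 lower, while over all genes the split went from 5457 higher and 5339 lower to 6538 and 4324. PDIA6 was 0.63 ± 0.041 (SE) higher on the log2 scale in SW948 (adjusted p = 3.61e-13), HYOU1 0.52 ± 0.042 higher (adjusted p = 3.17e-11), SDF2L1 0.40 ± 0.11 higher (adjusted p = 0.00191) and HSP90B1 0.12 ± 0.044 higher (adjusted p = 0.0129). DNAJB9 was lower by a log2 difference of -0.37 ± 0.056 (adjusted p = 1.52e-06), XBP1 by -0.31 ± 0.041 (adjusted p = 2.15e-07), HERPUD1 by -0.28 ± 0.040 (adjusted p = 4.56e-07) and PDIA4 by -0.19 ± 0.038 (adjusted p = 8.67e-05), the last of which became 0.0064 on plain totals. HSPA5 differed by -0.076 ± 0.043 (adjusted p = 0.100), which turned to 0.12 on plain totals and then passed the test (adjusted p = 0.0108), and CALR by 0.054 ± 0.039 (adjusted p = 0.204). The HSP90B1 difference no longer passed without HT55_CONT replicate 1 (0.11, adjusted p = 0.0502), and none of the 8 differences reached 1 on the log2 scale, as those of 32.4% of all genes did with a call.

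In HT55, itraconazole raised 5 of the 10 members and lowered 1. HSPA5 and DNAJB9 rose most, each 1.40-fold, followed by PDIA4, PDIA6 and CALR at 1.20- to 1.22-fold, while HYOU1 fell. Of all 12133 genes tested in this line, 54.0% changed, 27.5% upward and 26.5% downward, so that a called member is no rarity. On plain totals 2280 genes were higher and 4709 lower, in place of 3340 and 3213, and 2 members rose (HSPA5 and DNAJB9) while 3 fell (HYOU1, XBP1 and HERPUD1). The median log2 fold change of the members was 0.27, beside -0.015 for all genes tested. The 2 groups did not overlap for 6 members, HSPA5, DNAJB9, CALR, PDIA6, HYOU1 and XBP1, against 49.5% of all genes. No member moved by 1 or more on the log2 scale, as 9.63% of the genes did with a call.

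In SW948, 5 members rose, 3 fell and 2 did not pass. DNAJB9 rose 2.16-fold and was the only member with a called change past 1 on the log2 scale, whereas SDF2L1 fell 1.93-fold, PDIA4 1.38-fold and HYOU1 1.34-fold. HSP90B1 rose 1.32-fold and CALR 1.30-fold. XBP1 and HERPUD1 rose 1.19- and 1.17-fold with TMM scaling and turned to -0.088 and -0.11 on the log2 scale, without a call, on plain totals. In this line 80.2% of the 12505 genes tested changed (38.9% up, 41.3% down), and 32.0% were called with a change of at least 1. On plain totals 3147 genes were higher and 6826 lower, in place of 4865 and 5165, and 1 member rose (DNAJB9) while 5 fell (HSPA5, HYOU1, SDF2L1, PDIA4 and PDIA6). The median over the members was 0.12, beside -0.025 for all genes, and it turned to -0.21, beside -0.35, on plain totals. The groups did not overlap for 6 members, HSP90B1, CALR, DNAJB9, HYOU1, SDF2L1 and PDIA4, against 74.3% of all genes.

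**Figure D3:**
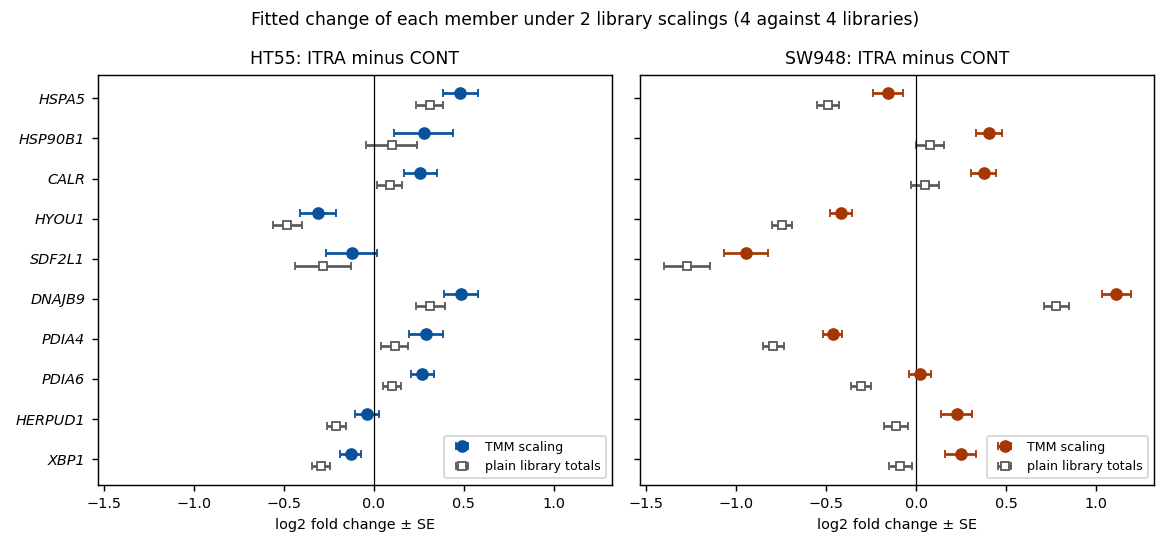
Fitted log2 fold change of each member, treated minus control, with its standard error, in HT55 (left) and SW948 (right), with TMM scaling (filled circles) and on plain library totals (open squares). DNAJB9, HSP90B1 and CALR lie above 0 and HYOU1 and SDF2L1 lie below 0 in both panels under both scalings. Not all of these changes were called. In SW948, PDIA6, HERPUD1 and XBP1 cross from above to below 0 on plain totals.

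HSPA5 (BiP), the Hsp70 of the ER, which also binds the sensors while they are inactive, lies at chr9:127997132-128003661 (GRCh37, minus strand). Its level was 714, 715, 691 and 681 CPM in the libraries of HT55_CONT and 1007, 1090.2, 775 and 1009.7 CPM in HT55_ITRA. All treated libraries were higher, with replicate 3 nearest to the controls. The log2 fold change was 0.48 ± 0.099 (SE, adjusted p = 0.00216). In SW948 the levels were 677, 679.6, 619.9 and 694 CPM without and 532, 646, 675 and 565 CPM with the drug, and these groups overlapped. That change was -0.15 ± 0.084 (adjusted p = 0.106). The difference between the lines, the SW948 change minus the HT55 change, was -0.61 ± 0.14 and passed the test (adjusted p = 0.000879). HSPA5 in SW948 is sensitive to settings: it passed on plain totals (-0.49, adjusted p = 6.39e-06), with no filter on low counts (-0.18, adjusted p = 0.0309) and without SW948_ITRA replicate 3 (-0.21, adjusted p = 0.0234), each time as lower.

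DNAJB9 (ERdj4), a J-domain cochaperone that brings HSPA5 to its clients and to IRE1, lies at chr7:108210311-108215294 on the plus strand. In HT55_CONT it had 56.4, 55.5, 49.8 and 55.8 CPM and in HT55_ITRA 78.5, 83.0, 62.5 and 78.3 CPM, with no overlap (0.48 ± 0.095, adjusted p = 0.00170). In SW948_CONT the values were 41.6, 43.0, 41.4 and 43.5 CPM, and in SW948_ITRA 78.0, 100.8, 95.9 and 95.6 CPM. Here the lowest treated library stood far above the highest control. The change was 1.11 ± 0.082 (adjusted p = 2.05e-08) and exceeded that in HT55 by 0.66 ± 0.13 (adjusted p = 0.000284). DNAJB9 was the 1 member called higher in both lines under every alternative tried other than the minimum change of 1, which HT55 did not reach.

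HYOU1 (GRP170), which exchanges the nucleotide of HSPA5, lies at chr11:118914899-118927938 on the minus strand. It fell in both lines, from 373, 358, 354 and 362 CPM to 329, 321, 239 and 270.1 CPM in HT55 and from 526, 513, 492 and 551 CPM to 396, 395, 396 and 382 CPM in SW948. Neither pair of groups overlapped. The log2 fold changes were -0.31 ± 0.099 (adjusted p = 0.0215) and -0.42 ± 0.061 (adjusted p = 2.19e-05), and the difference between them was -0.079 ± 0.12 (adjusted p = 0.592), which turned to a called -0.27 (adjusted p = 0.0300) on plain totals. The HT55 call was lost without control replicates 1, 2 or 4 or treated replicate 4, with adjusted p from 0.0568 to 0.0670. A long noncoding gene on the opposite strand shares 9.77% of the exon bases of HYOU1, and the strand setting of the counting is not given in the sources used here.

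SDF2L1, a small ER protein that works with DNAJB11 in the HSPA5 cycle, lies at chr22:21996591-21998588 on the plus strand. In HT55 it had 8.30, 9.79, 9.82 and 8.79 CPM in the controls and 7.97, 7.59, 10.3 and 7.46 CPM in the treated libraries, of which replicate 3 was above all controls. Its change there was -0.12 ± 0.14 (adjusted p = 0.479). In SW948 it went from 11.2, 11.6, 14.2 and 11.7 CPM to 6.27, 6.52, 6.28 and 6.37 CPM, with a wide gap between the groups. The change was -0.95 ± 0.12 (adjusted p = 6.61e-06). The lines differed by -0.80 ± 0.18 (adjusted p = 0.00119).

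HSP90B1 (GRP94), the Hsp90 of the ER, lies at chr12:104323885-104347709 on the plus strand. It had 1029, 1028, 1054 and 1019.9 CPM in HT55_CONT and 1428, 1597, 847 and 1094 CPM in HT55_ITRA. Replicate 3 was the lowest of all 8 libraries, while the other treated libraries were above every control. The change was 0.28 ± 0.16 (adjusted p = 0.173) and became 0.44 ± 0.099 (adjusted p = 0.00159) without that library. In SW948 it rose from 1133, 1192, 1048 and 1151 CPM to 1551, 1472, 1360 and 1656 CPM without overlap (0.40 ± 0.074, adjusted p = 0.000168), whereas on plain totals the change was 0.078 (adjusted p = 0.360). The difference between lines was 0.16 ± 0.19 (adjusted p = 0.4995), with the opposite sign on plain totals (-0.022) and without HT55_ITRA replicate 3 (-0.0035). UQCC6 on the opposite strand shares 6.15% of its exon bases.

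CALR (calreticulin), the soluble lectin that holds glycoproteins during folding and binds calcium, lies at chr19:13049392-13055303 on the plus strand. It rose in HT55 from 619, 625, 622 and 589.8 CPM to 762, 849, 626 and 679.7 CPM, where the lowest treated library was within 1 CPM of the highest control. The change was 0.26 ± 0.092 (adjusted p = 0.0339). This call was lost without any 1 of the 4 control libraries or without treated replicates 1 or 2, with adjusted p from 0.0626 to 0.0793, and on plain totals (0.088, adjusted p = 0.311). In SW948 it rose from 651, 623, 655 and 635 CPM to 908, 777, 771 and 899 CPM without overlap (0.38 ± 0.069, adjusted p = 0.000175), and on plain totals the change was 0.050 (adjusted p = 0.566). The lines differed by 0.15 ± 0.12 (adjusted p = 0.311), or -0.037 on plain totals.

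PDIA4 (ERp72), a disulfide isomerase, lies at chr7:148700154-148725754 on the minus strand and moved in opposite directions in the lines. In HT55 it went from 377, 364, 351 and 362 CPM to 484, 494, 365 and 419.7 CPM, where treated replicate 3 fell within the controls. In SW948 it went from 319, 326, 318 and 322 CPM to 243, 233, 229 and 233 CPM, far apart. The log2 fold changes were 0.29 ± 0.094 (adjusted p = 0.0241) and -0.46 ± 0.055 (adjusted p = 2.68e-06), and their difference was -0.73 ± 0.11 (adjusted p = 2.14e-05). Among the 11448 genes tested in both lines, 4.05% were called higher in HT55 and lower in SW948, and PDIA4 is the 1 member among them. The rise in HT55 was not called without control replicates 2 or 3 or treated replicates 1 or 2 (adjusted p from 0.0528 to 0.0683) or on plain totals (0.12, adjusted p = 0.203).

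PDIA6 (P5), the other isomerase of the list, lies at chr2:10923517-10978103 on the minus strand. It rose in HT55 from 424, 429.9, 442 and 426 CPM to 506, 558, 490.1 and 508 CPM without overlap (0.27 ± 0.062, adjusted p = 0.00407; 0.10 and adjusted p = 0.0947 on plain totals). In SW948 the levels were 682, 661, 642 and 698 CPM against 662, 684, 664 and 740.0 CPM, and the groups overlapped. That change was 0.023 ± 0.062 (adjusted p = 0.743), with the opposite sign on plain totals (-0.31, adjusted p = 0.000231) and without SW948_CONT replicate 3 (-0.0051). The difference between lines was -0.22 ± 0.087 (adjusted p = 0.0393). ATP6V1C2 on the opposite strand shares 25.2% of the exon bases of PDIA6, merged over all transcripts. How many PDIA6 reads fall there was not measured, so its values are uncertain to an unknown extent.

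HERPUD1, an ER membrane protein that helps to send misfolded proteins to the proteasome, lies at chr16:56966054-56978776 on the plus strand. In HT55 it had 155, 151, 157 and 155 CPM in the controls and 146, 164, 137 and 149 CPM in the treated libraries, which overlapped (-0.040 ± 0.067, adjusted p = 0.630; 0.018 without HT55_ITRA replicate 3). In SW948 it had 129, 124, 129.5 and 127 CPM against 124, 161, 169 and 147 CPM. Treated replicate 1 was as low as the lowest control and the other treated libraries were higher than all controls. The change was 0.23 ± 0.086 (adjusted p = 0.0268), but without any 1 control library or without treated replicates 2 or 3 it was not called (0.16 to 0.23, adjusted p from 0.0512 to 0.0724). The lines differed by 0.29 ± 0.12 (adjusted p = 0.0373), which was 0.097 and not called on plain totals (adjusted p = 0.368). Without SW948_ITRA replicate 1 the change in SW948 was 0.32 (adjusted p = 0.000252).

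XBP1, the transcription factor of the IRE1 arm, lies at chr22:29190543-29196585 on the minus strand. The counts are per gene and do not separate the spliced from the unspliced form. It had 249, 266, 265 and 261 CPM in HT55_CONT and 240.2, 243, 227 and 236 CPM in HT55_ITRA. All treated libraries were lower, but the change of -0.13 ± 0.057 did not pass (adjusted p = 0.0790), and on plain totals it did (-0.29, adjusted p = 0.000902). In SW948 the levels went from 215, 212, 204 and 217 CPM to 213, 271, 287 and 244 CPM, with treated replicate 1 among the controls. The change there was 0.25 ± 0.086 (adjusted p = 0.0158; -0.088 and adjusted p = 0.227 on plain totals), and 0.34 (adjusted p = 0.000213) without that replicate. The difference between lines was 0.41 ± 0.11 (adjusted p = 0.00365) and kept its sign and its call on plain totals (0.21, adjusted p = 0.0454).

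The response therefore differed between the lines for 7 of the 10 members by the test of the difference itself, where 53.9% of the 13249 genes tested did (24.8% upward and 29.1% downward). Over all genes this was 3292 against 3849, and on plain totals 2295 against 4929, where 2 members passed upward and 5 downward. None of the members' differences reached 1, as 20.8% of all genes did with a call. Relative to HT55, itraconazole moved DNAJB9, XBP1 and HERPUD1 upward in SW948 and HSPA5, SDF2L1, PDIA4 and PDIA6 downward. HSP90B1, HYOU1 and CALR did not pass this test. Called in both lines with the same sign were DNAJB9, CALR and HYOU1, beside 39.4% of the 11448 genes tested in both, and with opposite signs PDIA4, beside 6.66%. The PDIA6 and HERPUD1 differences were not called in 10 and 12 of the 16 fits that left out 1 library, with adjusted p up to 0.0817 and 0.0967, and fell short as well with a replicate block (adjusted p = 0.0755 and 0.0504). The other 5 kept their call in every such fit.

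Without HT55_ITRA replicate 3, 6 members rose in HT55 and 1 fell, and 64.5% of all genes were called. HSPA5 was then 0.59 ± 0.056 higher, DNAJB9 0.59 ± 0.066, HSP90B1 0.44 ± 0.099, PDIA4 0.39 ± 0.065, CALR 0.34 ± 0.071 and PDIA6 0.31 ± 0.056, and HYOU1 was lower at -0.21 ± 0.070. For 9 of the 10 members the SD of log2 CPM among the treated HT55 libraries exceeded that among the controls, for instance 0.21 against 0.035 for HSPA5 and 0.41 against 0.021 for HSP90B1. XBP1 was the exception, with 0.043 against 0.045.

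A ratio of counts within a library needs no scaling factor, and HSPA5 was taken as its base. This description was added after the values had been seen and carries no test. In HT55, DNAJB9 kept its proportion to HSPA5, with 7.77 ± 0.41 counts per 100 HSPA5 counts in the controls and 7.81 ± 0.19 with the drug (SD, n = 4). In SW948 it went from 6.35 ± 0.23 to 15.3 ± 1.20. The cochaperone and its partner thus moved in proportion in HT55 and apart in SW948.

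HYOU1 per 100 HSPA5 counts went from 51.7 ± 1.33 to 29.9 ± 2.49 in HT55 and from 77.9 ± 1.84 to 65.5 ± 7.07 in SW948, without overlap in either line. HERPUD1 and XBP1 went down against HSPA5 in HT55, from 22.1 ± 0.79 to 15.5 ± 1.45 and from 37.2 ± 1.65 to 24.7 ± 3.12, and up in SW948, from 19.1 ± 1.23 to 24.8 ± 1.12 and from 31.7 ± 0.79 to 41.9 ± 1.41. For both genes the groups were apart in each line. CALR went from 87.7 ± 1.58 to 75.4 ± 5.77 in HT55 and from 96.2 ± 6.62 to 141 ± 28.04 in SW948, and HSP90B1 from 148 ± 4.29 to 126 ± 20.5 and from 169 ± 4.19 to 253 ± 46.2. PDIA6, at 61.5 ± 2.10 and 53.7 ± 6.31 in HT55 and 100.6 ± 2.60 and 115 ± 15.4 in SW948, overlapped between the groups of each line. PDIA4 varied least against HSPA5 over the 4 groups, with means of 51.9 ± 1.18, 45.5 ± 2.87, 48.2 ± 2.14 and 39.2 ± 5.29 in the order HT55_CONT, HT55_ITRA, SW948_CONT, SW948_ITRA. SDF2L1 went down against HSPA5 in SW948, from 1.65 to 2.29 in the controls to 0.930 to 1.18 with the drug, while in HT55 treated replicate 3 remained among the controls.

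**Figure D4:**
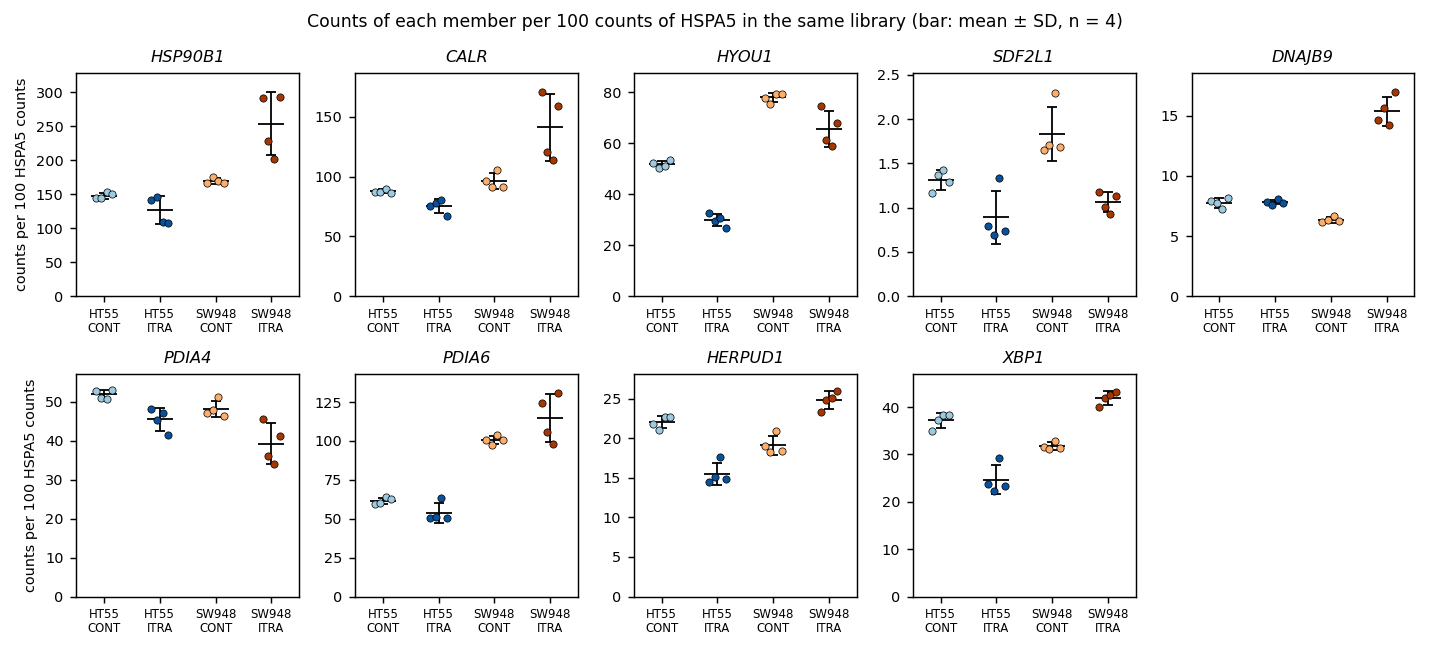
Counts of the 9 other members per 100 counts of HSPA5 in the same library, on linear axes from 0, for the 4 libraries of each group (points), with the mean and SD (bars). DNAJB9 is level in HT55 at 7.77 and 7.81 and goes from 6.35 to 15.3 in SW948, and HERPUD1 and XBP1 go down in HT55 and up in SW948.

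By mean level across the 4 groups, 3 pairs of members had the same order: HSPA5 and PDIA4, HSP90B1 and CALR, and XBP1 and HERPUD1. For HSPA5 and PDIA4 it ran from SW948_ITRA as the lowest over SW948_CONT and HT55_CONT to HT55_ITRA as the highest, and for HSPA5 only HT55_ITRA stood clear of its neighbour in that order. For CALR and HSP90B1 the order ran from HT55_CONT over SW948_CONT and HT55_ITRA to SW948_ITRA, with overlap between each pair of neighbours. HYOU1 was the 1 member whose 4 groups were all apart, in the order HT55_ITRA, HT55_CONT, SW948_ITRA, SW948_CONT, from a mean of 289.7 ± 43.0 to 520.2 ± 24.8 CPM. The span from the lowest to the highest group mean was widest for DNAJB9, at 2.18-fold, and narrowest for HERPUD1, at 1.21-fold.

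The genes whose pattern over the 16 libraries was most like that of HSPA5 were sought among the 5774 genes whose mean log2 CPM reached 5, by the mean absolute difference of centred log2 CPM. They were HKDC1 (0.073), a hexokinase-like protein, CNST (0.081), SPTBN1 (0.088), a spectrin, CYB5R3 (0.088), a cytochrome b5 reductase, and SLC39A9 (0.089), a zinc transporter. PDIA4 was in place 45 (0.14), and the other members of sufficient level stood between place 601, HERPUD1, and place 3393, PDIA6. SDF2L1 was below the level limit. The points share the line and the treatment, so this ranks likeness and says nothing of shared control.

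The rest of the pathway, with heat shock proteins outside the ER, was examined through 7 lists with 130 genes, of which 124 were tested in each line. In HT55, 40 rose (32.3%, against 27.5% of all genes) and 35 fell (28.2%, against 26.5%). In SW948, 51 rose (41.1%, against 38.9%) and 44 fell (35.5%, against 41.3%). These totals include the 16 heat shock genes from outside the ER. That list gave 8 of the rises and 1 of the falls in HT55, and 15 and 0 in SW948. Lists built around ER functions, some of whose proteins do not reside in the ER, showed no common direction in HT55. Of 20 further ER chaperones 5 rose and 6 fell, and of 18 disulfide bond enzymes 7 and 5. The counts were 8 and 5 of 24 genes of ER-associated degradation and glycoprotein quality control. For signal peptide handling and the translocon they were 9 and 8 of 24. In SW948 the counts were 7 and 8 of 19, 7 and 8 of 19, 7 and 9 of 23, and 8 and 8 of 24. The medians of these lists lay between -0.084 and 0.10 in both lines. On plain totals all were below 0, as were the medians of all genes. They lay between -0.20 and -0.065 in HT55, beside -0.18 for all genes, and between -0.41 and -0.32 in SW948, beside -0.35.

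The genes named next were picked by rule for the largest called changes of their list in either line, so their size beside the members is no finding. DNAJC10 (ERdj5), a disulfide reductase of the ER with a J domain, went from 125 ± 3.68 to 64.0 ± 10.5 CPM in HT55 and from 267 ± 17.6 to 80.5 ± 2.09 CPM in SW948 (log2 fold change -0.95 ± 0.098 and -1.74 ± 0.067). AGR2, an isomerase relative of secretory epithelium, fell from 30.3 ± 0.68 to 9.21 ± 2.73 CPM in HT55 and from 479 ± 68.0 to 32.0 ± 4.43 CPM in SW948 (-1.71 ± 0.17 and -3.92 ± 0.12). TMX2, a membrane thioredoxin, fell by -0.37 ± 0.069 and -1.30 ± 0.078. CRELD1 rose in both lines (0.89 ± 0.21 and 1.57 ± 0.12), as did FKBP14, a prolyl isomerase of the ER (0.96 ± 0.19 and 0.78 ± 0.12). QSOX1, a sulfhydryl oxidase, rose in HT55 (0.95 ± 0.082) and fell in SW948 (-0.30, with a difference between lines of -1.22 and an adjusted p of 1.54e-07).

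UGGT1, the glucosyltransferase that marks misfolded glycoproteins for CALR, stood at 223 ± 13.5 and 228 ± 5.70 CPM in HT55 (0.042, and -0.12 on plain totals, without a call in either) and fell from 229 ± 20.6 to 94.1 ± 7.36 CPM in SW948 (-1.30 ± 0.081), and UGGT2 fell there as well (-1.05 ± 0.068). DERL1 and ERLEC1, both of ER-associated degradation, rose in HT55 (0.48 ± 0.071 and 0.47 ± 0.090) and were at 0.031 and 0.032 without a call in SW948, where on plain totals both were called lower (-0.30, adjusted p = 0.000930, and -0.29, adjusted p = 0.0455). SEC11C, a subunit of the signal peptidase, fell in both lines (-0.65 ± 0.17 and -2.49 ± 0.13). SRPRA, a subunit of the signal recognition particle receptor, rose from 191 ± 7.58 to 533 ± 53.8 CPM in SW948 (1.47 ± 0.079). Its rise in HT55 was 0.39 ± 0.11, and 0.22 without a call on plain totals (adjusted p = 0.0515). The other subunit, SRPRB, named after its values were seen, fell in HT55 (-0.28 ± 0.061) and in SW948 (-0.86 ± 0.087). TRAM1, a translocon protein, rose in HT55 (0.44 ± 0.073).

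Of the sensors and their proteases, 9 were tested in each line: HT55 had 2 higher and 2 lower, beside 27.5% and 26.5% of all genes, and SW948 had 1 higher and 7 lower, beside 38.9% and 41.3%. The median in SW948 was -0.80. On plain totals 1 was higher and 3 lower in HT55 and all 9 were lower with a call in SW948. Of all genes, 2280 were then higher and 4709 lower of 12133 in HT55, and 3147 and 6826 of 12505 in SW948. ERN1 did not pass in either line (0.19 ± 0.10, adjusted p = 0.129, and -0.13 ± 0.086, adjusted p = 0.166), although on plain totals it was lower in SW948 (-0.46, adjusted p = 0.000170) and without HT55_ITRA replicate 3 it was higher in HT55 (0.29, adjusted p = 0.00528). EIF2AK3 rose in HT55 (0.37 ± 0.090, adjusted p = 0.00595; 0.20 and not called on plain totals, adjusted p = 0.112) and by 0.15 ± 0.062 in SW948 (adjusted p = 0.0373), where it fell on plain totals (-0.18, adjusted p = 0.0366). ATF6 did not pass in HT55 (-0.063 ± 0.13, adjusted p = 0.695) and fell narrowly in SW948 (-0.19 ± 0.083, adjusted p = 0.0488). Its relative ATF6B fell in both lines (-0.79 ± 0.080 and, for SW948, -1.35 ± 0.092), as did CREB3L4 (-0.90 ± 0.15 and -1.47 ± 0.20).

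MBTPS2, the site-2 protease that releases ATF6, fell from 35.1 ± 1.24 to 9.50 ± 2.11 CPM in SW948 (-1.88 ± 0.13), against 49.2 ± 4.23 and 43.8 ± 5.35 CPM in HT55. ERN2, the IRE1 of secretory epithelium, fell in SW948 from 59.4 ± 5.46 to 3.97 ± 0.95 CPM (-3.91 ± 0.13). HT55 gave too few counts for a test, 10 in HT55_CONT and 3 in HT55_ITRA when the libraries are summed. ERN2 and AGR2 are thus far higher in untreated SW948 than in HT55 and were the steepest falls in SW948 among the lists.

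The PERK and ATF4 branch gave the lowest median of the lists in HT55, -0.49, where 8 of 13 genes were lower and 1 was higher, beside 26.5% and 27.5% of all genes. The SW948 counts were 4 lower and 6 higher of 14, beside 41.3% and 38.9%. The median there was 0.16, and -0.18 on plain totals, beside -0.35 for all genes. With plain totals 11 were lower in HT55 and the other 2 were not called, and in SW948 7 were lower and 6 higher. Of all genes, 4709 were then lower and 2280 higher of 12133 in HT55, and 6826 and 3147 of 12505 in SW948. ATF4, the transcription factor of the branch, fell in HT55 from 257 ± 2.58 to 218 ± 22.1 CPM (-0.23 ± 0.075, adjusted p = 0.0231) and rose in SW948 from 261 ± 20.4 to 512 ± 90.6 CPM (0.96 ± 0.11, adjusted p = 2.51e-06), a difference of 1.22 ± 0.15 (adjusted p = 1.49e-06). DDIT3 (CHOP), the stress factor below ATF4, went from 77.7 ± 8.45 to 55.01 ± 18.8 CPM in HT55 without a call (-0.49 ± 0.21, adjusted p = 0.0660; -0.67 with a call on plain totals) and rose in SW948 from 100.1 ± 4.68 to 166 ± 53.6 CPM (0.71 ± 0.18, adjusted p = 0.00221), where replicate 1 at 98.2 CPM lay among the controls and the other treated libraries, at 149 to 219 CPM, lay above them. Its difference between lines was 1.23 ± 0.30 (adjusted p = 0.00179).

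Within this branch the genes did not move as 1 block. ASNS, asparagine synthetase, fell in HT55 (-1.12 ± 0.095), as did the receptor VLDLR (-1.17 ± 0.16), whereas ASNS in SW948 was at 0.071 without a call, and at -0.26 with one on plain totals (adjusted p = 0.00108). ATF3 rose in SW948 (1.69 ± 0.18) while CHAC1, which degrades glutathione, fell there (-2.10 ± 0.13) and in HT55 (-0.84).

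The cytosolic and mitochondrial heat shock proteins, the folding machinery outside the ER, had the highest median of all lists, with 0.33 for HT55 and 0.80 for SW948. This list, like the others, was written with earlier results of these data known, so its rank is not an independent finding. Of 16 genes, 8 were higher and 1 lower in HT55, beside 27.5% and 26.5% of all genes (12 higher without HT55_ITRA replicate 3, when 64.5% of all genes were called in either direction), and 15 were higher in SW948, beside 38.9%, with the other not called. With plain totals the counts were 7 higher and 2 lower, and 12 higher and 1 lower. All genes then gave 2280 and 4709 of 12133 in HT55, and 3147 and 6826 of 12505 in SW948. HSPB1 rose from 13.1 ± 1.10 to 69.9 ± 15.1 CPM in HT55 (2.42 ± 0.15) and from 55.4 ± 11.4 to 217 ± 60.5 CPM in SW948. HSPA1B rose from 42.1 ± 2.98 to 135 ± 25.6 and from 66.4 ± 5.07 to 346 ± 74.5 CPM, and HSPA1A rose from 6.94 ± 1.42 to 29.4 ± 9.49 CPM in SW948. These paralogs are near-identical, reads that match both were not counted, and their values are uncertain.

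**Figure D5:**
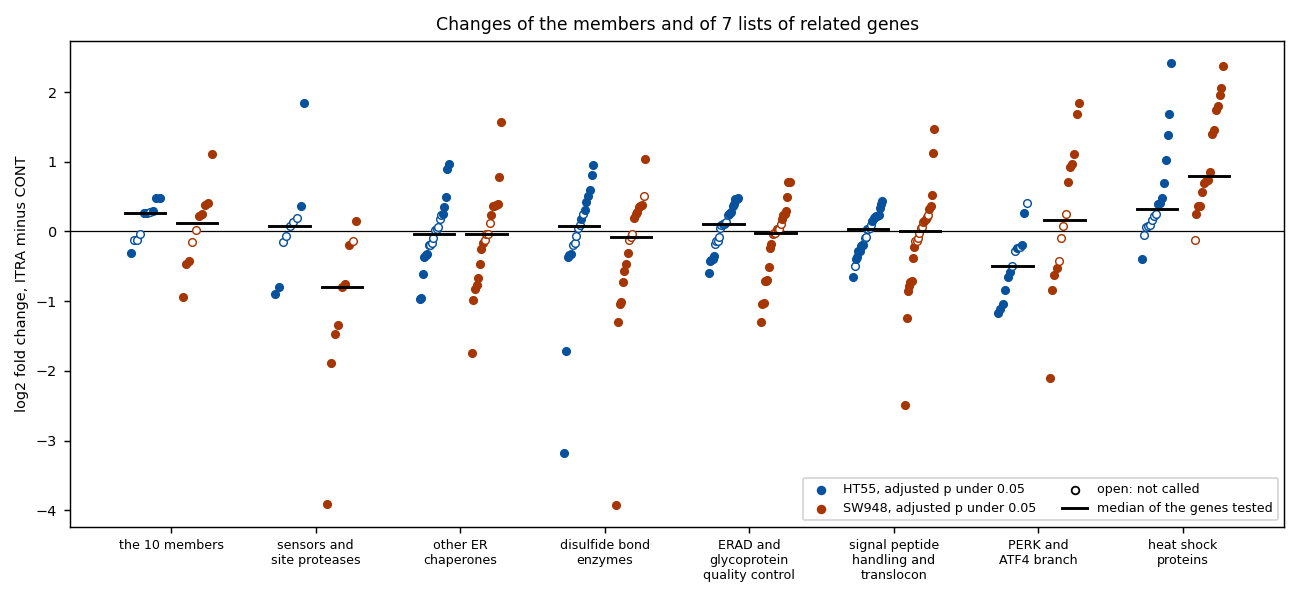
Log2 fold change, treated minus control with TMM scaling, of the 10 members and of the genes tested in 7 related lists, in HT55 (blue) and SW948 (brown). Filled points passed an adjusted p under 0.05, open points did not, and black bars give the median. The heat shock proteins have the highest medians, 0.33 and 0.80, the sensors lie low in SW948 and the PERK and ATF4 branch lies low in HT55. Several medians near 0 turn negative on plain library totals, where the medians of all genes are -0.18 in HT55 and -0.35 in SW948. The lists were chosen with earlier results of these data known.

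The promoter letters can be set beside the changes. Of the 5 members with an exact ERSE, 3 were called higher in each line, beside 27.5% of all genes in HT55 (HSPA5, CALR and PDIA6) and 38.9% in SW948 (HSP90B1, CALR and XBP1), and the other 2 were not called. On plain totals HSPA5 alone of the 5 was called higher in HT55, XBP1 was called lower there, and in SW948 HSPA5 and PDIA6 were called lower and the other 3 were not called. Among all genes 2280 were then higher and 4709 lower of 12133 in HT55, and 3147 and 6826 of 12505 in SW948. Of the 20 other genes with that motif, HT55 had 10 tested, 3 higher and 1 lower, and SW948 had 11 tested, 4 higher and 6 lower. Among them, named after their values were seen, the ER genes ALG12 (-0.997), CRELD2 (-0.83), FICD (-0.67) and CANX (-0.17) fell in SW948. SERP1 rose there (0.68) and ERO1B was not called (-0.032). In SW948 the largest member changes were in genes with other windows: DNAJB9 had no match and SDF2L1 had an ERSE-II with an inexact ERSE. In HT55, HSPA5 with its exact ERSE and DNAJB9 without a match both rose by 0.48. SDF2L1 was not called there (-0.12).

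Reads that aligned to more than 1 place, which made up 22.0% to 27.9% of those in the files, were not counted in any gene. Named pseudogene copies held few counts: HSP90B3P had 20, HSPA5P1 had 27, XBP1P1 had 4 and CALR4P had 0 over all 16 libraries, while reads that fit both a member and its copy are missing from both.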

How the data were processed

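RNA was sequenced as single-end reads of 50 bp from TruSeq libraries. Per the submitters' processing notes, reads were aligned to hg19 with TopHat, counted with HTSeq and tested with DESeq, and the authors deposited raw read counts per gene, 1 file per library. Versions, annotation release and strand setting are not given in the sources used here. Totals of reads not assigned to a gene, 28.2% to 32.9% of reads, were left out. Most of these aligned to more than 1 place (22.0% to 27.9%). Reads in no annotated gene made up 3.79% to 4.94%, and reads that fit more than 1 gene 1.23% to 1.48%. Symbols, coordinates and lengths came from GENCODE on GRCh37, and promoter windows from RefSeq on GRCh38.p14, with no conversion between builds.

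The quasi-likelihood test of edgeR 4.0.16 (R 4.3.3, TMM, filterByExpr, Benjamini-Hochberg adjustment over all genes tested, threshold 0.05) was fitted per line on 8 libraries, on the 8 controls for the lines, and on 16 libraries for the interaction. The standard error of a change is its size divided by the root of F. Each fit was tested on simulated data. Alternatives were DESeq2 1.42.0 size factors and Wald test, plain totals, no filter, a minimum log2 change of 1, a replicate block, 1 fit on all libraries and leaving out each library. Canonical lengths, ratios to HSPA5 and the list counts without HT55_ITRA replicate 3 were added after the data were seen. Same-numbered libraries did not deviate together and no label pairs them, so the numbers were not used as pairs.

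Besides the members, genes were named by rule: 6 sensors and factors of the response, per list and line the 2 largest called changes among genes whose mean log2 CPM reached 3, and the 5 genes most like HSPA5. The members and lists were chosen with earlier results of these data known. The counts carry no molecular identifiers, and their depth limits SDF2L1 most. Figures were drawn with matplotlib 3.10.9.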

Additional observations from a re-analysis of the deposited data

Results flagged for a closer look

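In 7 members the change with itraconazole differed between the lines by the interaction test of edgeR, given here as the SW948 change minus the HT55 change on the log2 scale. It was 0.66 for DNAJB9 (adjusted p = 0.000284), 0.41 for XBP1 (0.00365) and 0.29 for HERPUD1 (0.0373), and it was -0.80 for SDF2L1 (0.00119), -0.73 for PDIA4 (2.14e-05), -0.61 for HSPA5 (0.000879) and -0.22 for PDIA6 (0.0393). Such a difference was called for 53.9% of the 13249 genes tested.

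In 2 of 40 groups of 4 libraries, 1 library stood far from the other 3. HYOU1 in SW948_ITRA replicate 4 was at 382 CPM beside 395 to 396 CPM, with a gap of 0.903 of the range of the group, and DNAJB9 in HT55_CONT replicate 3 was at 49.8 CPM beside 55.5 to 56.4 CPM, with a gap of 0.872. Chance marks about 1 in 20 groups in this way.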

How the results depend on the processing

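On plain library totals the members called higher and lower went from 5 and 1 to 2 and 3 in HT55 and from 5 and 3 to 1 and 5 in SW948. For all genes tested they went from 3340 and 3213 to 2280 and 4709 in HT55. In SW948 the all-gene counts went from 4865 and 5165 to 3147 and 6826. Over the 7 lists the higher genes went from 40 to 22 in HT55 and from 51 to 27 in SW948, and the lower genes in SW948 from 44 to 74. The summed level of the members went from 3981 to 4071 CPM in HT55_CONT, from 4657 to 4258 in HT55_ITRA, from 4345 to 5050.2 in SW948_CONT and from 4770.1 to 4375 in SW948_ITRA. Signs turned for PDIA6 (-0.31), XBP1 (-0.088) and HERPUD1 (-0.11) in SW948, for the difference between lines of HSP90B1 (-0.022) and CALR (-0.037), and between the controls for HSPA5 (0.12) and PDIA4 (0.0064). TMM and plain totals differ in the factor per library alone.

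With a minimum log2 change of 1, 0 members were higher and 0 lower in HT55, 1 higher and 0 lower in SW948, and 0 passed for the difference between lines and between controls. Of all genes, 9.63% passed in HT55, 32.0% in SW948, 20.8% for the difference between lines and 32.4% between controls. Over the lists 5 were higher and 5 lower in HT55, and 14 higher and 15 lower in SW948. These are subsets of the edgeR calls by construction.

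Leaving out 1 library gave 3 to 6 higher and 0 to 1 lower members in HT55. Among all genes tested these fits gave 2983 to 3999 higher and 2577 to 3912 lower. Signs turned for HERPUD1 in HT55 (-0.089 to 0.018) and the HSP90B1 difference between lines (-0.0035 to 0.30), both without HT55_ITRA replicate 3, and for PDIA6 in SW948 (-0.0051 to 0.055) without SW948_CONT replicate 3. The cause was not tested. The PDIA6 difference between lines was also not called with DESeq2 size factors (-0.19) and, as that of HERPUD1 (0.29), with no filter (-0.23), and the HSP90B1 difference between controls was not called in 1 fit on all libraries (0.12).

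With a replicate block, 5 members were higher and 1 lower in HT55, 5 and 3 in SW948, and 2 and 3 for the difference between lines, where PDIA6 (-0.22) and HERPUD1 (0.29) were not called. It changed no other call of a member. Among all genes it gave 3183 higher and 3117 lower in HT55, 4830 and 5143 in SW948, and 3269 and 3768 for the difference. Same-numbered libraries correlated at -0.026 to 0.12 in HT55 and 0.0022 to 0.13 in SW948, and 3 of 8 correlated best with their own number. DESeq2's Wald test gave the same counts of called members in each direction as edgeR in all 4 comparisons.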
